A study of Mus musculus with 12 samples.

Results

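The mitochondrial carriers of the Slc25 family were followed through differentiation and ageing of the mouse intestinal epithelium. Members were all rows of the gene count table whose symbol begins with Slc25a and a number, leaving out pseudogenes. This gave 47 of 34245 rows. The table held RNA-seq counts of 12 libraries in 4 groups of 3: young ISC, aged ISC, young AE and aged AE. ISC are intestinal stem cells, sorted from small intestinal crypts as GFP-high cells. AE are enterocytes, sorted from small intestinal villi as Epcam-high cells without CD31 and CD45. Young mice were about 8 months old and aged mice about 27 months. All mice were male C57BL/6 animals with the Lgr5-EGFP-IRES-CreERT2 knock-in, so both cell types and both ages carried the GFP allele, and GFP marked the stem cells through the Lgr5 locus. The Epcam gate does not separate enterocytes from the other epithelial cells of the villus.

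The inner mitochondrial membrane is nearly closed to metabolites, and Slc25 proteins are its main gates. Each one exchanges or imports a particular set of solutes, such as ADP and ATP, phosphate, carboxylates of the citric acid cycle, amino acids, carnitine esters, cofactors or iron. The carriers are encoded in the nucleus, made in the cytosol and inserted into the inner membrane by the TIM22 complex. In the small intestine, crypt stem cells divide and feed the villus, where absorptive enterocytes take up lipid, sugar, amino acids and iron and use glutamine as a fuel.

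The upstream sequences of 3 carriers are shown as examples. Many other members also differed between ISC and AE, so these 3 do not stand for the family. In aged mice the aspartate/glutamate carrier Slc25a12 was lower in AE and its paralogue Slc25a13 higher, while in young mice Slc25a12 did not pass. The pyrimidine nucleotide carrier Slc25a36 was higher in AE at both ages. Each line gives the 250 bases before the RefSeq start (GRCm38.p6), 5′ to 3′ on the strand of the gene. Capitals mark the E-box CACGTG and the cAMP response element TGACGTCA. All 3 genes lie on the minus strand, Slc25a12 with the region chr2:71367756-71368005, Slc25a13 with chr6:6217174-6217423 and Slc25a36 with chr9:97111042-97111291.
Slc25a12: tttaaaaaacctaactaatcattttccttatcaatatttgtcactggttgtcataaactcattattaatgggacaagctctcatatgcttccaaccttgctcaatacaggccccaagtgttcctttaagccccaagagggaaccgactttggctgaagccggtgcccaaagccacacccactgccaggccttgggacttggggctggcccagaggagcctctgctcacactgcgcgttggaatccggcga
Slc25a13: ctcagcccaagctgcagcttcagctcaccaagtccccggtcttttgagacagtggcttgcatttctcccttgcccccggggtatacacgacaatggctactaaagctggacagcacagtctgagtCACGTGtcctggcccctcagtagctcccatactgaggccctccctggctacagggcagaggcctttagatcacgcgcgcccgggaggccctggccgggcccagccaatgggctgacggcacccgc
Slc25a36: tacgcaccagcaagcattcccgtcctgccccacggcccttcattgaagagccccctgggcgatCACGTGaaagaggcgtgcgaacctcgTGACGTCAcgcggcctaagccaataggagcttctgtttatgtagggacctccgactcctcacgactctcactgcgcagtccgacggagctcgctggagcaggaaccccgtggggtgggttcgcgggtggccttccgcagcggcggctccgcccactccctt
The sequence of Slc25a12 held neither word, that of Slc25a13 held the E-box, and that of Slc25a36 held both. Searched on both strands over windows of 300 bases, 250 before and 50 after the start, the E-box was present in 8 of 46 windows of 36 members (17.4%), against 7.15% of 32851 windows of all genes. The 7 genes were Slc25a1, Slc25a13, Slc25a14, Slc25a15, Slc25a31, Slc25a33 and Slc25a36. Overlapping windows of Slc25a14 held the same site, so the count is of windows and not of separate sites. The cAMP response element was present in 2 of the 46 windows (4.35%), against 1.79% of all. The HNF4 word CAAAGTCCA, the NRF1 palindrome and the nuclear receptor word CAAAGGTCA were in none of the 46, and were in 0.475%, 0.971% and 0.478% of all windows. The words describe the sequence only, and the members holding the E-box included transcripts that rose in AE and transcripts that did not pass the test. The windows of Slc25a48, Slc25a34, Slc25a45, Slc25a22 and Slc25a24, which are among the largest rises in AE, held neither the E-box nor the cAMP response element. Those of Slc25a23, which was lower in AE, held neither as well, and Slc25a36 was the only member with both. A link of the words with the direction of change was not tested.

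For 8 of the 12 samples the code in the title named another age or cell type than the words after it. Groups were therefore read from the column names of the count table, which carry the codes, and marker genes were checked against them. All 10 stem cell markers, Lgr5 and Olfm4 among them, were lower in AE than in ISC at both ages, and all 12 enterocyte markers were higher. The summed level of the stem cell markers ran from 5264 to 7246 CPM (read counts relative to a library size scaled by TMM) in ISC and from 162 to 649 in AE. Young AE replicate 2 held the highest stem cell level of the AE libraries, and its proliferation markers summed to 375 CPM against 76.7 to 129 in the other AE libraries. Goblet markers (19323 to 36114 CPM against 1236 to 1902) and enteroendocrine markers (2507 to 6392 against 206 to 644) also had higher sums in AE. Of the 5 goblet markers 4 were called higher at both ages, Fcgbp and Tff3 with the highest levels, while Spink4 did not pass in young mice and was lower in aged ones (-1.02, FDR 0.018). All 5 enteroendocrine markers were higher at both ages. Paneth markers were lower in AE (38.7 to 161 CPM, against 425 to 1317 in ISC), 4 of 5 in young and 5 of 5 in aged mice. Lymphocyte markers summed to 13.9 to 46.5 CPM in AE and 0.800 to 15.9 in ISC, and were called higher in AE for 1 of 6 in young and 6 of 6 in aged mice. The part of these cells in the member values was not tested. Library totals ran from 11893817 to 26796461 counts, except young AE replicate 3, which held 110794420. In these bulk libraries, fewer cells of a type and less RNA per cell cannot be told apart.

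All 47 members were annotated as protein coding, and 4 of them lie on the X chromosome. In every library, 39 members had more than 3 counts. Slc25a2, Slc25a21, Slc25a31, Slc25a43 and Slc25a48 passed 3 counts in some libraries only. Slc25a18, Slc25a41 and Slc25a54 had no count in any library. The family took 0.371% to 0.440% of all counts in ISC and 0.465% to 0.555% in AE, and these ranges did not overlap. On the CPM scale its summed level in ISC was 3124 ± 329 (SD, n = 3) for young and 2951 ± 265 for aged mice. The AE sums were 6437 ± 653 and 6935 ± 431. The scaling factors were 1.26 to 1.37 in ISC and 0.720 to 0.823 in AE, which widens the gap on the CPM scale relative to the raw shares. The same factors enter the CPM of each member, so small rises in AE below rest partly on the scaling.

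A few carriers dominated the family. Levels between genes were compared per kb of exon. Slc25a5, the main ADP/ATP carrier of dividing cells, was first in both cell types, with a mean over the 6 libraries of 322 CPM per kb in ISC (267 to 395) and 728 in AE (611 to 828). Slc25a3, which brings phosphate into the matrix for ATP synthesis, was the second in both, with 146 CPM per kb in ISC (124 to 165) and 273 in AE (246 to 316). The ranges of both lay above that of every other member in either cell type. Ucp2, a relative of the family under another name, was not in this ranking, and its level per kb is not given. It averaged 631 CPM in young and 514 in aged ISC, and 906 in young and 797 in aged AE. In ISC the third place was held by Slc25a39, the glutathione carrier, at 86.8 CPM per kb (69.5 to 102), and its range overlapped with that of Slc25a1 (49.7 to 74.5). In AE it was held by Slc25a45, at 119 CPM per kb (97.4 to 149). The ranges of Slc25a10 (77.1 to 146), Slc25a11 (102 to 134), Slc25a1 (73.6 to 108) and Slc25a39 (55.2 to 106) overlapped with it, so their order in AE is not resolved.

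**Figure D1:**
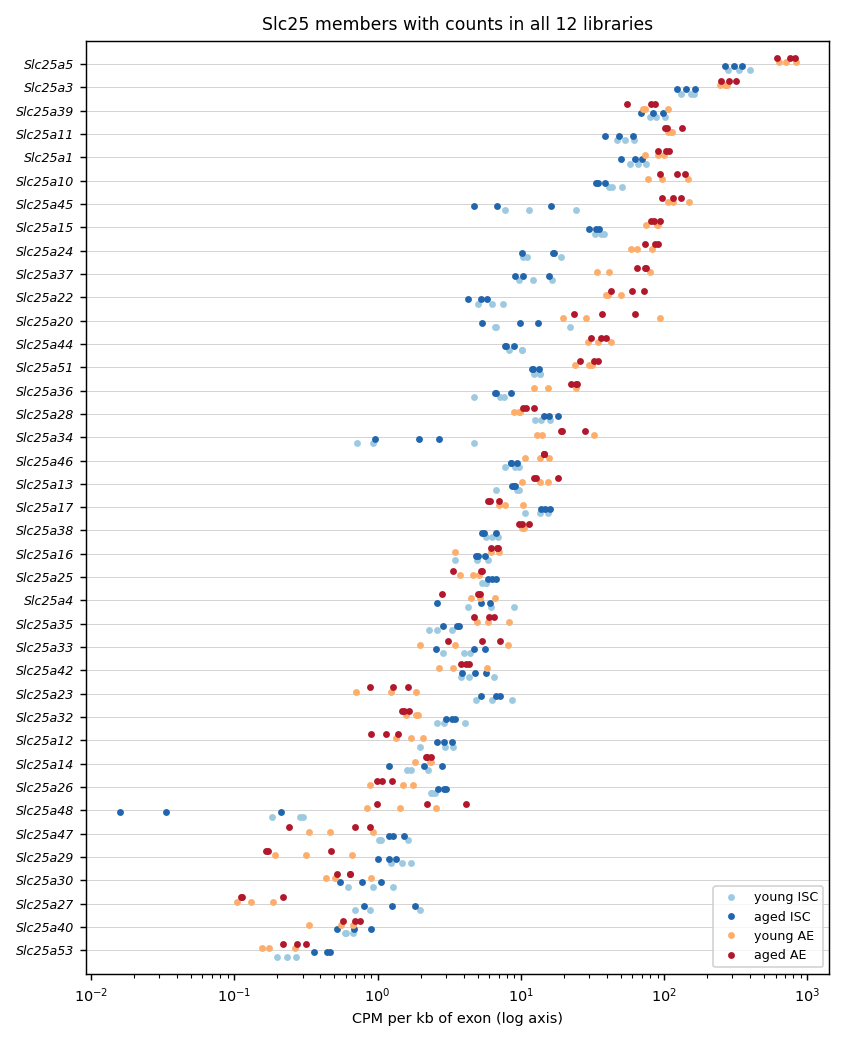
Levels of Slc25 members with counts in all 12 libraries, in CPM per kb of exon on a log axis, each point 1 library and each colour 1 group. Slc25a5 and Slc25a3 stand above all others in every library, and for most members the young and aged points of a cell type lie among each other.

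The first comparison was between AE and ISC within each age, which asks how the carrier set differs between stem cells and differentiated enterocytes. The edgeR quasi-likelihood test was fitted to all genes, with P-values adjusted by Benjamini-Hochberg (FDR under 0.05). In young mice 19 of 42 tested members (45.2%) were higher in AE and 8 (19%) were lower, against 27.7% higher and 25.4% lower over all 16681 genes tested. In aged mice 20 of 41 (48.8%) were higher and 11 (26.8%) lower, against 30% and 34.1% of 15855 genes. In either direction 53.1% of all genes passed in young and 64.1% in aged mice, and by DESeq2 54.3% and 63.6%. With the stricter count filter filterByExpr, 19 of 40 members were higher in young mice, against 4276 of 13161 genes. In aged mice these were 20 of 40 members and 4408 of 13225 genes. The median log2 fold change of the members tested was 0.36 in young and 0.61 in aged mice, with 0.15 and -0.13 over all genes. The 2 ages used separate libraries. At both ages 27 members passed, 19 higher and 8 lower. In aged mice only, Slc25a1 also passed as higher, and Slc25a12, Slc25a25 and Slc25a47 as lower. The remaining 16 members passed at neither age, 5 of them without enough counts to be tested at either age. Counted by groups that did not overlap, 18 members were higher and 10 lower in young mice, against 32.3% and 30.7% of all genes, and 21 and 12 in aged mice, against 33.4% and 36.4%.

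The young counts of calls were 17 higher and 9 lower without AE replicate 2, the library with the most stem cell transcripts, and 16 and 8 without AE replicate 3, the deepest. Without ISC replicate 2 they were 16 and 4, and calls over all genes fell from 8864 to 7040. The 4 lower calls lost then were Slc25a26 (-0.83, against -0.81 with all libraries), Slc25a17 (-0.64 against -0.67), Slc25a28 (-0.48 against -0.57) and Slc25a32 (-0.63 against -0.84), so their estimates kept their sign. In aged mice each library could be left out with 20 higher and 9 or 10 lower.

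**Figure D2:**
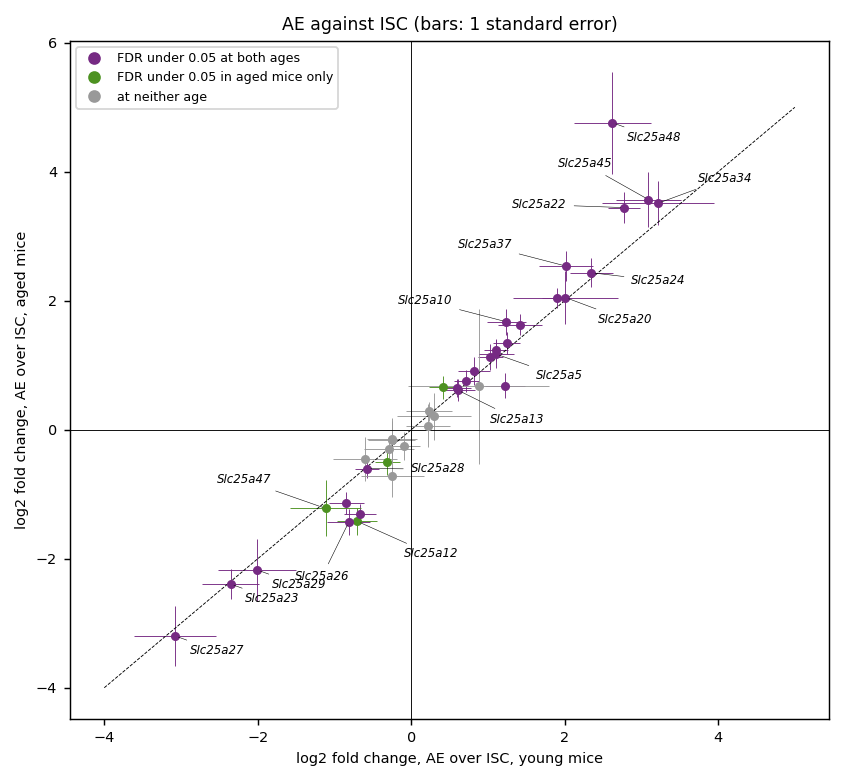
Log2 fold change of AE over ISC for members tested at both ages, young mice on the x axis and aged mice on the y axis, with bars of 1 standard error and a dashed line of equal change. The members called at both ages lie in the upper right and lower left corners, from Slc25a27 (-3.08 and -3.20) to Slc25a34 (3.22 and 3.51) and Slc25a48 (2.62 and 4.76).

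Carriers for energy coupling were higher in AE, except for the minor ADP/ATP carrier. Slc25a5 read 459, 545 and 651 CPM across young ISC and 509, 578 and 440 across aged ISC. Its AE values were 1044, 1363 and 1160 CPM in young and 1359, 1254 and 1006 in aged mice. All AE libraries were above all ISC libraries, with log2 fold changes of 1.11 ± 0.23 (SE, FDR 0.00425) in young and 1.17 ± 0.22 (FDR 0.001) in aged mice. Of the 50-base words in the exons of Slc25a5, 33.8% also occur in 9 other genes, Gm5560, Gm5529 and Slc25a5-ps first. Reads from these stretches cannot be told apart. As only uniquely mapped reads were counted, the level of Slc25a5 may be understated. Slc25a3 stood at 734, 852 and 893 CPM in stem cells of young mice and at 785, 914 and 688 in those of aged mice. The enterocyte libraries gave 1526, 1480 and 1367 CPM when young and 1755, 1394 and 1568 when aged, again without overlap (0.82 ± 0.21, FDR 0.0109, and 0.91 ± 0.22, FDR 0.00438). Slc25a4, the ADP/ATP carrier of heart and muscle, was far lower and did not pass the test. It read 10.01, 21.1 and 14.5 CPM across young ISC and 14.3, 12.4 and 6.13 across aged ISC. Young AE libraries held 12.2, 15.6 and 10.5 CPM and aged ones 11.9, 12.3 and 6.65, so the cell types overlapped (-0.26 ± 0.30 and -0.16 ± 0.35). Per kb, Slc25a5 stood 37.0 to 103 times above Slc25a4 in ISC and 122 to 216 times in AE. Slc25a31, the germ cell ADP/ATP carrier, had 7 counts in the deepest library, 1 in another and none in the rest.

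The ATP-Mg/phosphate carriers Slc25a24 and Slc25a23 moved in opposite directions. These calcium-regulated carriers set the adenine nucleotide content of the matrix. Slc25a24 stood at 35.3, 37.9 and 65.3 CPM in stem cells of young mice and at 35.1, 58.6 and 57.7 in those of aged mice. Villus cells had 203, 282 and 222 CPM at the young and 254, 295 and 311 at the aged age, all above the ISC libraries (2.35 ± 0.28, FDR 0.000384, and 2.43 ± 0.23, FDR 1.04e-05). Slc25a23 went the other way. It read 46.3, 25.8 and 33.5 CPM across young ISC and 35.4, 28.1 and 37.6 across aged ISC. Levels in AE were 3.76, 6.62 and 9.87 CPM for young and 8.66, 6.81 and 4.69 for aged mice (-2.35 ± 0.37, FDR 0.0012, and -2.39 ± 0.24, FDR 1.56e-05). Per kb, the ratio of Slc25a24 to Slc25a23 was 1.18 to 3.22 in ISC and 34.7 to 102 in AE. Slc25a25, a further member of this group, stood at 44.8, 42.0 and 44.7 CPM in stem cells of young mice and at 46.2, 49.5 and 52.8 in those of aged mice. Among AE libraries the young read 29.5, 40.0 and 36.6 CPM and the aged 26.4, 42.3 and 41.3. It passed in aged mice (-0.50 ± 0.20, FDR 0.0461) and not in young (-0.31 ± 0.17, FDR 0.147). The aged call of Slc25a25 was lost without ISC replicate 1, 2 or 3 or AE replicate 1 or 3 (FDR 0.0504 to 0.149). The last one, Slc25a41, had no counts.

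Carriers of cofactors and nucleotides fell or rose by member. Lower in AE at both ages were Slc25a26, the S-adenosylmethionine carrier, Slc25a32, linked to folate and FAD, and Slc25a17, the peroxisomal carrier of CoA and other nucleotides. Slc25a26 read 11.3, 11.5 and 12.2 CPM across young ISC and 14.5, 14.0 and 12.7 across aged ISC. Its AE values were 4.26, 8.44 and 7.19 CPM in young and 5.14, 6.09 and 4.80 in aged mice (-0.81 ± 0.28, FDR 0.0391, and -1.43 ± 0.21, FDR 0.000197). The highest young AE value was in replicate 2, the library with the most stem cell and proliferation transcripts.

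Slc25a32 stood at 15.9, 24.7 and 17.8 CPM in stem cells of young mice and at 18.2, 20.2 and 21.1 in those of aged mice. The enterocyte libraries gave 11.4, 11.6 and 9.68 CPM when young and 9.04, 9.32 and 10.04 when aged (-0.84 ± 0.23, FDR 0.014, and -1.14 ± 0.17, FDR 0.000243). No AE library reached an ISC library. Slc25a17 read 30.7, 38.9 and 43.8 CPM across young ISC and 45.4, 42.0 and 39.7 across aged ISC. Young AE libraries held 20.0, 29.4 and 22.2 CPM and aged ones 20.0, 17.3 and 16.9 (-0.67 ± 0.21, FDR 0.0293, and -1.30 ± 0.15, FDR 4.24e-05), again with its highest AE value in young replicate 2. In young mice the call of Slc25a26 was lost without ISC replicate 1, 2 or 3 or AE replicate 1 (FDR 0.0581 to 0.103). That of Slc25a17 was lost without ISC replicate 2 or 3 or AE replicate 1 or 3 (FDR 0.0632 to 0.105), and that of Slc25a32 without ISC replicate 2 (FDR 0.0703).

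On the rising side were Slc25a51, the NAD carrier, and Slc25a36. Slc25a51 ran from 66.2 to 75.5 CPM in ISC and from 132 to 191 in AE (1.11 ± 0.16, FDR 0.000862, and 1.24 ± 0.17, FDR 0.000129). Slc25a36 stood at 68.3, 45.1 and 73.3 CPM in stem cells of young mice and at 64.8, 62.9 and 81.3 in those of aged mice. Villus cells had 149, 119 and 232 CPM at the young and 235, 214 and 232 at the aged age, without overlap (1.42 ± 0.29, FDR 0.00398, and 1.63 ± 0.16, FDR 1.61e-05). Its partner for pyrimidine nucleotides, Slc25a33, read 5.42, 7.55 and 8.31 CPM across young ISC and 10.6, 8.96 and 4.80 across aged ISC. Its AE levels were 6.55, 3.72 and 15.4 CPM in young and 10.2, 13.4 and 5.89 in aged mice, overlapping throughout, and it did not pass (0.29 ± 0.48 and 0.21 ± 0.36). Slc25a16 (16.7 to 28.3 CPM in ISC, 16.8 to 34.0 in AE) and the CoA carrier Slc25a42 (23.0 to 38.9 in ISC, 16.2 to 35.0 in AE) did not pass either. Of the 17 nucleotide, cofactor and phosphate carriers, 15 were tested. In young mice 5 were higher and 5 lower, and in aged mice 5 were higher and 6 lower, with medians of -0.26 and -0.16. The called shares were 66.7% and 73.3%, against 53.1% and 64.1% of all genes, and nothing is read from these counts.

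The carboxylate and fatty acid carriers that passed were all higher in AE. Of 5 listed, 4 could be tested, and 3 were higher in young and 4 in aged mice, with medians of 1.14 and 1.40. Over all genes 27.7% and 30% were higher, and 4 members are too few to read a share from. Slc25a10, the dicarboxylate carrier, read 142, 149 and 176 CPM across young ISC and 116, 133 and 119 across aged ISC. Levels in AE were 266, 333 and 504 CPM for young and 426, 484 and 326 for aged mice, with no overlap (1.24 ± 0.26, FDR 0.00426, and 1.67 ± 0.20, FDR 5.29e-05). Slc25a11, the 2-oxoglutarate/malate carrier, stood at 99.6, 114 and 130 CPM in stem cells of young mice and at 102, 129 and 82.4 in those of aged mice. Among AE libraries the young read 224, 238 and 239 CPM and the aged 284, 221 and 217, all above the ISC libraries (1.03 ± 0.16, FDR 0.00122, and 1.13 ± 0.21, FDR 0.000916). Slc25a1, which exports citrate, read 125, 142 and 161 CPM across young ISC and 151, 135 and 108 across aged ISC. On the AE side, young mice gave 159, 216 and 196 CPM and aged mice 233, 224 and 196. It passed in aged mice (0.66 ± 0.18, FDR 0.00877) and not in young (0.42 ± 0.18, FDR 0.0856). Slc25a21, the oxodicarboxylate carrier, had at most 7 counts in an ISC library and none in any AE library, and no fold is given.

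Slc25a20 carries acylcarnitines into the matrix for fatty acid oxidation. It read 31.9, 32.6 and 106 CPM across young ISC and 47.9, 64.3 and 25.9 across aged ISC. Its AE values were 139, 96.1 and 454 CPM in young and 179, 305 and 115 in aged mice. In aged mice every AE library was above every ISC library (2.05 ± 0.40, FDR 0.00144). In young mice the groups overlapped, since ISC replicate 3 was above AE replicate 2 (2.01 ± 0.68, FDR 0.0361). Without young AE replicate 3 the estimate was 0.97 (FDR 0.113). The young call was also lost without ISC replicate 1 (1.72, FDR 0.124) or 2 (1.73, FDR 0.112), and without ISC replicate 3 the estimate was 2.83.

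For Slc25a20, Slc25a34 and Slc25a45, libraries with the same code were high together. The code holds a number that an ISC and an AE library of an age share. In the plot of levels by code, libraries Y3 and O3, which are replicate 3 of the young and replicate 2 of the aged groups, were the highest of their age in both cell types for all 3 genes. Slc25a34 stood at 2.49, 1.93 and 12.5 CPM in stem cells of young mice and at 5.16, 7.12 and 2.58 in those of aged mice. The enterocyte libraries gave 34.5, 37.3 and 86.2 CPM when young and 51.2, 74.5 and 51.8 when aged. Slc25a45 read 31.3, 21.3 and 67.1 CPM across young ISC and 13.0, 44.5 and 18.8 across aged ISC. Young AE libraries held 294, 317 and 411 CPM and aged ones 320, 361 and 269. The 12 enterocyte markers summed to 3798, 3437 and 9214 CPM across young ISC and to 1574, 4917 and 2272 across aged ISC, so the ISC libraries with the most of these carriers also had the most enterocyte transcripts. In AE the enterocyte sum was likewise highest in Y3 (87343 CPM, against 66567 and 73250) and in O3 (104440 CPM, against 86111 and 96468). The part of enterocyte transcripts in these levels was not tested. Y3 and O3 were also the highest of their age in both cell types for Slc25a10, Slc25a39 and Slc25a46. The pattern is therefore not particular to Slc25a20, Slc25a34 and Slc25a45, and Slc25a39 did not pass between AE and ISC. Its share over all genes was not counted.

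**Figure D3:**
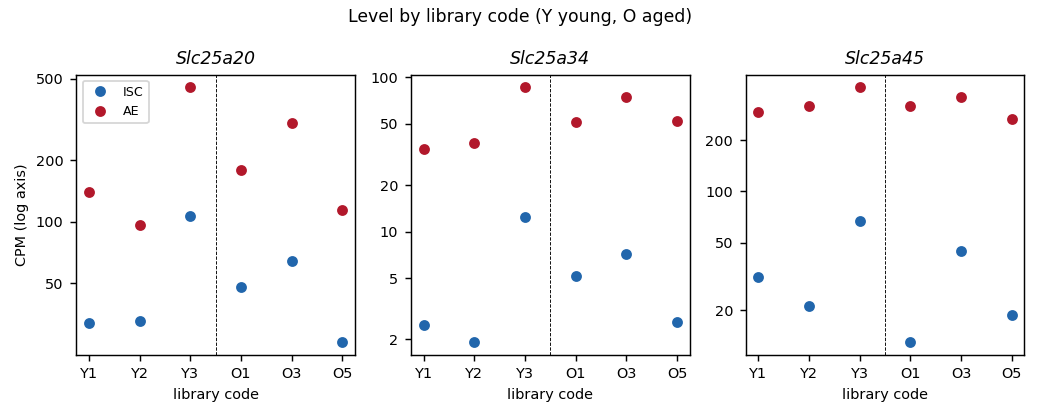
CPM of Slc25a20, Slc25a34 and Slc25a45 by library code on a log axis, ISC in blue and AE in red, with young codes left of the dashed line and aged codes right of it. In each panel and cell type, Y3 is the highest young library and O3 the highest aged library.

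Slc25a48, Slc25a34, Slc25a45 and Slc25a22 had the largest rises of the family in AE. All AE libraries were above all ISC libraries for Slc25a34 (3.22 ± 0.73, FDR 0.00665, and 3.51 ± 0.34, FDR 1.36e-05) and Slc25a45 (3.09 ± 0.42, FDR 0.000656, and 3.57 ± 0.42, FDR 5.04e-05). Without ISC replicate 3 the young estimate of Slc25a34 was 4.58, and without AE replicate 3 it was 2.60. Without ISC replicate 3 the young estimate of Slc25a45 was 3.70 (aged 4.25 without aged ISC replicate 2). Slc25a48 rested on few reads in ISC, with 16, 17 and 11 counts in young and 4, 1 and 16 in aged libraries. In AE it had 59, 104 and 237 counts in young and 35, 155 and 68 in aged libraries. The young groups (0.618 to 1.02 CPM in ISC, 2.83 to 8.60 in AE) did not overlap (2.62 ± 0.51, FDR 0.00307). Nor did the aged ones (0.0540 to 0.711 CPM in ISC, 3.33 to 13.9 in AE, 4.76 ± 0.79, FDR 0.000489). The aged estimate of Slc25a48 was 6.31 without ISC replicate 3 and 4.11 without AE replicate 2, and the young one was 2.02 without AE replicate 2.

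The amino acid carriers rose or fell by member. Slc25a22, which brings glutamate into the matrix, stood at 45.1, 37.6 and 30.3 CPM in stem cells of young mice and at 31.4, 25.8 and 34.7 in those of aged mice. Villus cells had 242, 234 and 298 CPM at the young and 255, 360 and 437 at the aged age (2.78 ± 0.21, FDR 0.000111, and 3.44 ± 0.24, FDR 1.81e-06). All AE libraries lay above all ISC libraries, and the ranges were far apart. The other glutamate carrier, Slc25a18, had no counts.

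Slc25a12 and Slc25a13, shown above with their upstream sequences, exchange matrix aspartate for cytosolic glutamate and drive the malate-aspartate shuttle. Slc25a13 read 25.5, 37.1 and 35.5 CPM across young ISC and 33.2, 34.8 and 33.8 across aged ISC. Levels in AE were 38.8, 51.5 and 59.2 CPM for young and 68.7, 48.4 and 46.8 for aged mice (0.61 ± 0.22, FDR 0.0456, and 0.61 ± 0.17, FDR 0.0111). The groups did not overlap on the CPM scale. Before scaling they did, with 474 of 15189033 counts in young AE replicate 1 and 632 of 14133772 in young ISC replicate 3. The young call of Slc25a13 was lost without ISC replicate 1, 2 or 3 or AE replicate 2 or 3 (FDR 0.0639 to 0.205). Slc25a12 stood at 14.5, 21.7 and 24.6 CPM in stem cells of young mice and at 24.2, 21.5 and 19 in those of aged mice. Among AE libraries the young read 12.5, 15.1 and 9.91 CPM and the aged 10.3, 8.42 and 6.65. It passed in aged mice (-1.42 ± 0.21, FDR 0.00022), and young mice gave -0.70 ± 0.26 with FDR 0.0513. Per kb, the ratio of Slc25a13 to Slc25a12 was 2.65 to 3.45 in ISC and 5.99 to 13.6 in AE, without overlap.

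Slc25a15, the ornithine carrier of the urea cycle, read 184, 215 and 204 CPM across young ISC and 168, 197 and 187 across aged ISC. On the AE side, young mice gave 499, 508 and 421 CPM and aged mice 531, 482 and 457, without overlap (1.24 ± 0.18, FDR 0.000807, and 1.34 ± 0.17, FDR 8.64e-05). The other ornithine carrier, Slc25a2, had 0 to 6 counts in the ISC libraries and 0 to 3 in the AE libraries, except for 24 in the deepest one. Slc25a44, the branched-chain amino acid carrier, ran from 27.7 to 36.6 CPM in ISC and from 106 to 151 in AE (1.89 ± 0.19, FDR 0.000215, and 2.04 ± 0.16, FDR 3.75e-06). Slc25a38, the glycine carrier of haem synthesis, ran from 14.7 to 18.9 CPM in ISC and from 26.8 to 31.1 in AE (0.72 ± 0.16, FDR 0.00651, and 0.76 ± 0.16, FDR 0.00262). Slc25a29, which carries basic amino acids, fell. It read 3.89, 4.49 and 3.26 CPM across young ISC and 2.61, 3.51 and 3.11 across aged ISC. Its AE values were 1.72, 0.827 and 0.502 CPM in young and 1.24, 0.448 and 0.436 in aged mice, all below the ISC libraries (-2.01 ± 0.51, FDR 0.0113, and -2.17 ± 0.48, FDR 0.00274). Without AE replicate 1 the estimates of Slc25a29 were -2.66 in young and -2.84 in aged mice.

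The glutathione carriers did not pass. Slc25a39 stood at 243, 218 and 280 CPM in stem cells of young mice and at 231, 271 and 192 in those of aged mice. The enterocyte libraries gave 197, 204 and 292 CPM when young and 224, 237 and 152 when aged (-0.10 ± 0.21 and -0.25 ± 0.22). Slc25a40, at a far lower level, read 4.97, 5.68 and 5.05 CPM across young ISC and 5.72, 4.37 and 7.60 across aged ISC. Young AE libraries held 2.78, 4.63 and 5.67 CPM and aged ones 6.28, 5.83 and 4.80 (-0.25 ± 0.33 and -0.14 ± 0.28). Of the 11 amino acid and glutathione carriers, 10 were tested in young and 9 in aged mice. In young mice 5 were higher and 1 lower, and in aged mice 5 were higher and 2 lower. The called shares were 60% and 77.8%, against 53.1% and 64.1% of all genes, and nothing is read from these counts.

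The mitoferrins also parted. Slc25a37 (mitoferrin 1) and Slc25a28 (mitoferrin 2) bring iron into the matrix for haem and iron-sulphur clusters. Slc25a37 stood at 99.3, 58.8 and 73.1 CPM in stem cells of young mice and at 62.5, 54.5 and 94.2 in those of aged mice. Villus cells had 248, 205 and 482 CPM at the young and 453, 391 and 447 at the aged age (2.01 ± 0.35, FDR 0.00198, and 2.54 ± 0.23, FDR 8.08e-06). Slc25a28 read 52.0, 59.8 and 47.0 CPM across young ISC and 67.8, 54.6 and 58.9 across aged ISC. Levels in AE were 33.5, 36.5 and 36.8 CPM for young and 46.1, 38.7 and 41.0 for aged mice (-0.57 ± 0.16, FDR 0.0151, and -0.60 ± 0.15, FDR 0.00549). Within an age no AE library overlapped an ISC library for either gene. The young call of Slc25a28 was lost without ISC replicate 2 (FDR 0.0700). Per kb, the ratio of Slc25a37 to Slc25a28 was 0.574 to 1.19 in ISC and 3.49 to 8.14 in AE.

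**Figure D4:**
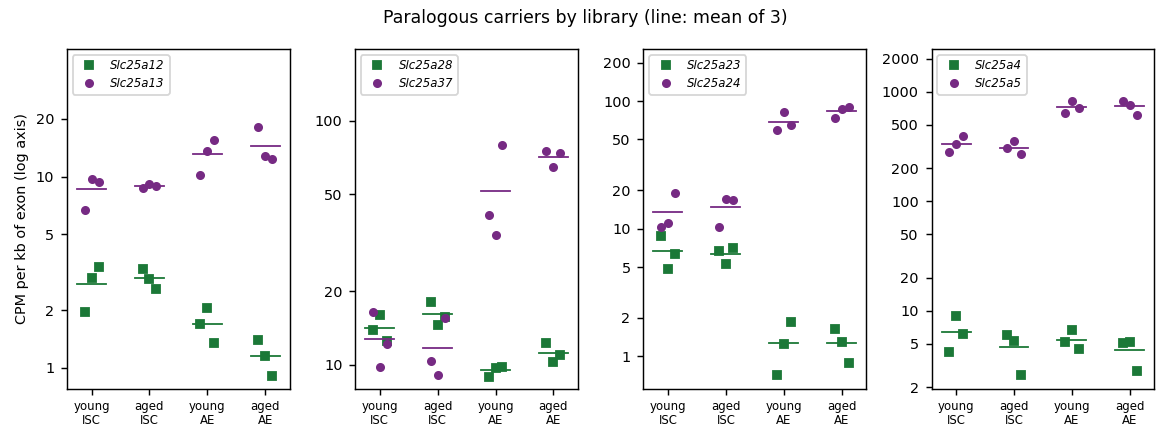
Levels of 4 pairs of paralogous carriers in CPM per kb of exon on log axes, each point 1 library and each line the mean of 3. Slc25a13, Slc25a37 and Slc25a24 are higher in AE while Slc25a12, Slc25a28 and Slc25a23 are lower on average, and Slc25a5 is higher with Slc25a4 overlapping between the cell types.

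Slc25a27, a relative of the uncoupling proteins best known from brain, showed the largest fall of the members called at both ages. It stood at 7.77, 3.46 and 2.75 CPM in stem cells of young mice and at 4.97, 3.18 and 7.24 in those of aged mice. Among AE libraries the young read 0.737, 0.414 and 0.514 CPM and the aged 0.856, 0.448 and 0.436, all below the ISC libraries (-3.08 ± 0.53, FDR 0.00187, and -3.20 ± 0.47, FDR 0.0002). In aged AE these were 9, 5 and 4 counts. The related Slc25a14 (2.84 to 6.62 CPM in ISC, 4.34 to 5.59 in AE) and Slc25a30 (2.48 to 5.86 and 1.99 to 4.10) did not pass.

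Of the other members, Slc25a35 read 12.1, 9.54 and 8.42 CPM across young ISC and 13.2, 10.5 and 13.7 across aged ISC. On the AE side, young mice gave 30.6, 21.7 and 18.1 CPM and aged mice 23.8, 22 and 17.3, all above the ISC libraries (1.22 ± 0.26, FDR 0.00462, and 0.68 ± 0.19, FDR 0.011). A share of 25% of its 50-base exon words is shared with other genes, Rangrf first, which overlaps it. Slc25a46, an outer membrane protein involved in mitochondrial shape, ran from 41.9 to 52.5 CPM in ISC and from 58.2 to 85.8 in AE (0.59 ± 0.19, FDR 0.0275, and 0.65 ± 0.14, FDR 0.00215). The young call of Slc25a46 was lost without ISC replicate 1 or 2 or AE replicate 2 or 3 (FDR 0.0688 to 0.158). Slc25a47, known from liver, ran from 3.07 to 4.84 CPM in ISC and from 0.717 to 2.78 in AE. It passed in aged mice (-1.22 ± 0.43, FDR 0.0319) and not in young (-1.11 ± 0.46, FDR 0.0735). With the code number as a block, which pairs the libraries of a code, Slc25a47 passed in young mice too (FDR 0.0255). The aged call of Slc25a47 was lost without ISC replicate 1, 2 or 3 or AE replicate 2 or 3 (FDR 0.0523 to 0.0797). Slc25a53 (1.59 to 3.72 CPM in ISC, 1.24 to 2.51 in AE) and Slc25a43 (0 to 15 counts in ISC and 0 to 17 in AE) did not pass.

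Of 10 genes listed for carrier import, none was called higher in AE. The list holds TIM22 genes and also the outer membrane genes Tomm70a, Tomm20, Tomm22 and Tomm40, so it is not a measure of insertion by TIM22 alone. In young mice 6 were lower and 4 did not pass, and in aged mice 8 were lower and 2 did not pass, against 25.4% and 34.1% of all genes lower. The medians were -0.74 and -0.85, with 0.15 and -0.13 over all genes. The chaperones Timm9 (-1.57, FDR 0.00092, and -2.27, FDR 4.02e-06) and Timm10 (-1.28, FDR 0.00203, and -2.35, FDR 7.89e-05) and the pore Tomm40 (-1.58, FDR 0.000709, and -2.29, FDR 7.73e-06) fell, along with Agk (-1.78, FDR 0.0023, and -1.92, FDR 0.000181). Timm22 itself did not pass in young mice (-0.32, FDR 0.224) and was lower in aged ones (-0.63, FDR 0.0158). Timm10b did not pass (-0.00 and -0.06).

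Of 24 listed enzymes that share solutes with the carriers, 14 were higher and 6 lower in young, and 14 and 7 in aged mice, with medians of 1.15 and 1.08. The called shares were 83.3% and 87.5%, against 53.1% and 64.1% of all genes. With the stricter count filter filterByExpr, 8365 of 13161 genes passed in young and 9410 of 13225 in aged mice. The part of expression level in this gap was not tested. Both sides of the malate-aspartate shuttle were represented among the rises, with cytosolic Got1 (1.89, FDR 0.000239, and 2.28, FDR 7.7e-06), Mdh1 (2.03, FDR 0.000445, and 2.36, FDR 3.47e-05) and mitochondrial Mdh2 (1.71, FDR 0.000986, and 1.86, FDR 0.000222), while mitochondrial Got2 fell (-0.88, FDR 0.00884, and -1.36, FDR 0.00471). Around the ornithine carrier, Cps1 (-2.59, FDR 0.00306, and -3.39, FDR 1.8e-05) and Oat (-1.18, FDR 0.0124, and -1.40, FDR 0.000408) fell, Arg2 rose (2.42, FDR 0.00153, and 2.48, FDR 0.000658), and Otc did not pass (0.07 and -0.13). Acly, which uses exported citrate, fell (-1.15, FDR 0.0011, and -1.35, FDR 0.000145) while citrate synthase Cs rose (1.35, FDR 0.00139, and 1.54, FDR 7.56e-05). Beside Slc25a20, Cpt2 (1.34, FDR 0.0105, and 1.29, FDR 0.0016) and Crat (2.64, FDR 0.00106, and 3.10, FDR 8.57e-06) rose, and Cpt1a did not pass (0.19 and 0.11).

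Of 16 other carriers and channels of mitochondrial membranes, 5 were higher and 3 lower in young, and 6 and 4 in aged mice. These are 50% and 62.5% called, near the 53.1% and 64.1% of all genes, and nothing is read from the count. Mcu, the calcium uniporter, rose (1.33, FDR 0.00047, and 1.46, FDR 2.19e-05) and Sfxn2 fell (-2.04, FDR 0.00235, and -2.68, FDR 6.86e-06). Of the 5 relatives that carry other names, Mtch2, an outer membrane insertase, rose (0.86, FDR 0.011, and 0.91, FDR 0.00607). Ucp2 (0.52 and 0.57) and Mtch1 (-0.38 and -0.41) did not pass, and Ucp1 and Ucp3 could not be tested.

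The second comparison was between aged and young mice within each cell type, which asks whether the carrier set changes with age. No member passed in either cell type. In ISC 43 members were tested and 0 were called by edgeR's quasi-likelihood test, against 0% of 15552 genes. In AE 42 were tested and 0 called, against 0% of 16265. DESeq2 called 58 genes in ISC (0.373%) and 18 in AE (0.111%), none of them a member. At an unadjusted P under 0.05 there were 695 genes (4.47%) and 2 members in ISC, and 809 genes (4.97%) and 0 members in AE. Groups did not overlap for 3 members higher (Slc25a25, Slc25a26 and Slc25a53) and 2 lower (Slc25a10 and Slc25a2) in aged ISC, against 4.42% and 4.44% of genes. In AE it was 1 higher (Slc25a28), against 4.01% of genes. Nothing is read from these few members.

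Over the 39 members with more than 3 counts in every library, the age estimates in ISC ran from -0.65 to 0.86 on the log2 scale with a median SE of 0.20, and 37 lay within 0.5 of no change. In AE they ran from -0.54 to 0.48 with a median SE of 0.23, and 38 lay within 0.5. Differences of the order of these errors were not detectable with 3 libraries a group. Larger ones could be missed too, since an estimate of 0.86 ± 0.28 in ISC did not pass. Slc25a53 had the lowest P in ISC. It read 1.59, 1.87 and 2.13 CPM in young and 3.54, 3.72 and 2.89 in aged ISC, without overlap (0.86 ± 0.28, unadjusted P = 0.0139 by edgeR, FDR 1.00). Slc25a35 was next among the positive estimates (0.32 ± 0.21, unadjusted P = 0.158 by edgeR). Slc25a2 had 3, 6 and 1 counts in young and 0, 0 and 0 in aged ISC (unadjusted P = 0.0212 by edgeR, FDR 1.00). These counts are at the detection limit of 3 counts, so no fold is given. Slc25a10 was lower in each aged ISC library than in each young one (-0.33 ± 0.15, unadjusted P = 0.0511 by edgeR).

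The ISC libraries of the 2 ages also differed in other cells' markers. The 12 enterocyte markers summed to 3437 to 9214 CPM in young and 1574 to 4917 in aged ISC, with 12 of 12 estimates below 0 and 0 called. The 6 lymphocyte markers summed to 6.76 to 15.9 CPM in young and 0.800 to 2.70 in aged ISC, with Cd3e and Cd8a at or under 3 counts in each aged library and 0 of 6 called. Their part in the member estimates was not tested.

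In AE the positive age estimates with the lowest P were Slc25a22 (0.46 ± 0.22, unadjusted P = 0.0667 by edgeR) and Slc25a36 (0.46 ± 0.24, unadjusted P = 0.0864 by edgeR). The negative ones were Slc25a12 (-0.54 ± 0.26, unadjusted P = 0.0663 by edgeR) and Slc25a17 (-0.38 ± 0.20, unadjusted P = 0.0888 by edgeR). In each of these 4 the libraries of the 2 ages overlapped. Slc25a12 and Slc25a17 were highest in young AE replicate 2, which also held the most stem cell transcripts (649 CPM, against 162 to 284 in the other AE libraries), and the part of these was not tested. The lowest FDR of any member was 0.833.

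**Figure D5:**
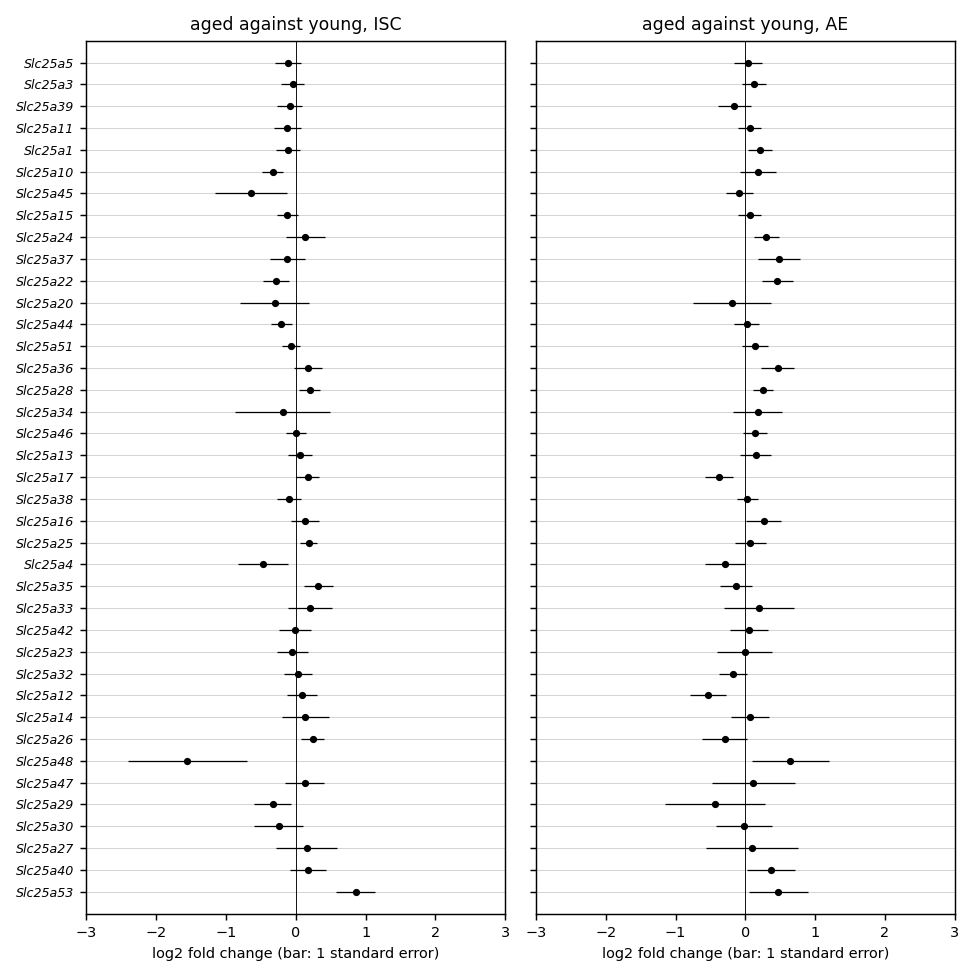
Log2 fold change of aged over young mice for members with counts in all 12 libraries, in ISC (left) and AE (right), ordered by level, with bars of 1 standard error. The estimates scatter around 0 on both sides, and Slc25a48 (-1.55 in ISC and 0.64 in AE, with 1 count in its lowest library) and Slc25a53 in ISC (0.86) lie farthest from it.

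The third comparison asked whether the AE to ISC difference itself changed with age, as an interaction over all 12 libraries. Of 43 members tested, 0 were called by edgeR, against 0.00575% of 17377 genes (1 gene), and 757 genes (4.36%) had an unadjusted P under 0.05. DESeq2 called 43 genes (0.247%), none of them a member. The 4 members under 0.05 were Slc25a22 (0.74 ± 0.30, unadjusted P = 0.0309 by edgeR), Slc25a17 (-0.56 ± 0.26, unadjusted P = 0.0466 by edgeR), Slc25a48 (2.2 ± 1.02, unadjusted P = 0.0498 by edgeR) and Slc25a2 (unadjusted P = 0.0446 by edgeR), the last on counts near the detection limit. For Slc25a22 the difference between AE and ISC was 2.78 in young and 3.44 in aged mice. All 4 had an FDR of 1.00. Thus Slc25a12, which passed between AE and ISC in aged mice only, was not shown to differ between the ages, and the same holds for Slc25a1, Slc25a25 and Slc25a47.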

How the data were processed

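Poly(A) RNA-seq of sorted ISC and AE cells was used. Per the study's methods, single-end reads were trimmed with Trim Galore 0.4.4, mapped to GRCm38 with HISAT2 2.1.0, and uniquely mapped reads were counted over exons in SeqMonk. The strand setting of the count table is not given in the sources used here. The deposited values are raw counts per gene for 12 libraries (11893817 to 110794420 counts). A second deposited table holds the authors' differentially expressed genes and was not used. Columns of no group numbered 0. The members and gene lists were chosen with earlier results of these data known.

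Counts were fitted with edgeR 4.0.16 (quasi-likelihood, TMM, genes with at least 10 counts over the libraries compared) in R 4.3.3, with 2 groups a fit and 4 for the interaction. P-values were adjusted over all genes at FDR 0.05, and SE is the log2 fold change divided by the root of F. CPM used TMM factors of all 12 libraries. Fits were tested on simulated data. Methods give separate ages for the mice of a cohort, but the labels do not tie libraries to mice, so P-values measure the spread between these libraries, which may be technical. Libraries of 1 group differed by more than counting noise. Replicates follow the column order. ISC and AE libraries share code numbers: their deviations correlated at 0.213 to 0.431 in 6 of 6 pairs with the same code and at -0.376 to 0.110 in 12 pairs with different codes, so codes were taken as pairs in an alternative with a replicate block. Values in every library are given for the 6 strongest rises and 6 strongest falls among members called at both ages, the 3 highest per kb in each cell type, paralogue sets, the 2 lowest P in each direction with age and the 2 lowest P of the interaction. Other genes come from fixed lists. Some genes that these rules cover are not reported here, in the text or the figures, but are included in the counts. Other alternatives were DESeq2 1.42.0, RLE and upper-quartile scaling, filterByExpr, no filter, 1 fit of all groups, the deepest library thinned to 14373053 counts, and each library left out. Exon lengths and shared 50-base words came from GENCODE M21, and upstream sequences from RefSeq (36 of 47 members).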

Additional observations from a re-analysis of the deposited data

How the results depend on the processing

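The counts of members called kept within 1.5 times of the values above under every alternative run. The young count was 20 to 26 with 1 library left out (lowest without ISC replicate 2), and the aged count was 29 to 30. The counts with age and for the interaction were 0 throughout, which with 3 libraries a group does not show that levels are equal. With the replicate block, which pairs libraries by code, 28 members passed in young mice, 31 in aged mice and 0 for the interaction, and the block changed no call other than that of Slc25a47 in young mice. DESeq2 added Slc25a12 and Slc25a47 in young mice and lost Slc25a25 in aged mice. RLE scaling and filterByExpr also lost Slc25a25 in aged mice. The fit of all groups together lost Slc25a25 and Slc25a47 in aged mice and added Slc25a12 in young mice. Upper-quartile scaling lost Slc25a13 and Slc25a46 and added Slc25a12 in young mice.

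The median of members moved more. In young AE against ISC it was 0.23 with upper-quartile scaling and 0.22 to 0.47 with 1 library left out. In aged mice it was 0.70 with DESeq2, RLE scaling or 1 fit of all groups, 0.53 with upper-quartile scaling, 0.48 with filterByExpr and 0.25 to 0.66 with 1 library left out. For age it was -0.0242 in ISC with filterByExpr, and with 1 library left out -0.0930 to 0.0207 in ISC and -0.0169 to 0.176 in AE. For the interaction it was -0.0209 to 0.183 with 1 library left out. The cause was not tested.

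Between AE and ISC, the estimates that changed sign were all of members not called. Slc25a14 in aged mice was -0.0309 with upper-quartile scaling and -0.21 to 0.37 with 1 library left out. Also with 1 library left out, the young estimates were -0.0477 to 0.448 for Slc25a16, -1.26 to 0.52 for Slc25a2, -0.55 to 0.57 for Slc25a33, -0.37 to 0.00085 for Slc25a39 and -0.525 to 0.0555 for Slc25a4. The aged ones were -0.10 to 0.47 for Slc25a33, -0.455 to 0.0822 for Slc25a4, -0.306 to 0.0713 for Slc25a40 and -0.55 to 1.23 for Slc25a43. Several age estimates, none of them called, also changed sign with 1 library left out. In ISC the age estimate ran from -0.62 to 0.52 for Slc25a20 and from -0.60 to 1.17 for Slc25a34. Low counts limit Slc25a2, Slc25a21, Slc25a31, Slc25a43 and Slc25a48.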

Other observations

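Levels by library code are given for 4 genes of fatty acid oxidation that are not carriers, chosen after their values were seen. Crat read 43.5, 37.2 and 71.6 CPM in young ISC, 34.1, 48.1 and 29.6 in aged ISC, 217, 226 and 506 in young AE and 309, 446 and 252 in aged AE. Acadm read 80.7, 105 and 146 CPM in young ISC, 113, 145 and 102 in aged ISC, 212, 224 and 344 in young AE and 263, 300 and 236 in aged AE. Cpt1a read 194, 203 and 353 CPM in young ISC, 310, 260 and 227 in aged ISC, 152, 228 and 476 in young AE and 252, 465 and 180 in aged AE. Cpt2 read 100, 96.8 and 166 CPM in young ISC, 120, 126 and 74.5 in aged ISC, 240, 223 and 457 in young AE and 272, 342 and 207 in aged AE. In AE, Y3 was the highest young library and O3 the highest aged library for all 4 genes. In ISC this held for Crat, Acadm and Cpt2, while Cpt1a was highest in O1 among the aged libraries. The number of libraries with each code is 1 in each cell type, so no test was made, and the cause was not tested.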
